A study of Mus musculus with 8 samples.

Results

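The immunity-related GTPases (IRG proteins) are a family of interferon-induced GTPases, and 7 of their genes, Irgm1, Irgm2, Igtp, Iigp1, Ifi47, Tgtp1 and Tgtp2, were followed here in CD8+ T cells. The genes were taken by symbol from a table of read counts, where all 7 were found among 49492 genes. RNA had been measured in 8 libraries described as CD8+ T cells from subcutaneous B16 melanomas of female mice, collected on day 14 with beads against CD8a. The 4 knockout (KO) libraries were labelled Lckcre-PLPP1fl/fl, meaning loxP-flanked alleles of Plpp1, the gene of phospholipid phosphatase 1, with a Cre recombinase driven by Lck, whose promoter is active in T-lineage cells. The 4 control (WT) libraries were labelled PLPP1fl/fl and carried the same flanked alleles without Cre. The question put to the IRG genes is whether their RNA levels differ when this lipid phosphatase gene is deleted in T cells.

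IRG genes are transcribed at low levels in most mouse cells and are induced by interferon gamma, and by type I interferons, through JAK kinases and IRF factors. Their proteins act in cell-autonomous defence, where they gather on the vacuoles that hold parasites such as Toxoplasma gondii and break them open. Members with a methionine in place of the usual lysine of the nucleotide-binding loop, Irgm1, Irgm2 and Igtp (also called Irgm3), sit on the cell's own membranes and hold the other members inactive there. Members with the lysine, Iigp1 (Irga6), Tgtp1 and Tgtp2 (Irgb6) and Ifi47 (Irgd), are the class that loads onto vacuoles. In mice that lack Irgm1, CD4+ T cells exposed to interferon gamma survive poorly.

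Of the 7 genes, 6 lie on mouse chromosome 11 in the GRCm38 coordinates of the count table. Irgm1 spans chr11:48861968-48871683, Tgtp1 spans chr11:48985327-48994172 and Tgtp2 spans chr11:49057194-49064206, all on the minus strand. Ifi47 at chr11:49076587-49096974, Igtp at chr11:58199556-58207591 and Irgm2 at chr11:58199618-58222782 lie on the plus strand.

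Promoter sequences are shown because the route that induces these genes is known. Their part in the differences between genotypes below was not tested. RefSeq on GRCm38.p6 gave windows of 300 bases, 250 before and 50 after the annotated start, for 6 of the 7 genes. Each window was searched on both strands for the letters TTCNNNGAA, a form of the gamma-activated site (GAS) of interferon gamma-induced promoters, and for 2 copies of the letters GAAA set 2 bases apart, a form of the interferon-stimulated response element (ISRE) that IRF factors bind. The stretches of 60 bases below, 5′ to 3′ on the strand of the gene, hold every match found in these windows, in capitals.
Irgm1: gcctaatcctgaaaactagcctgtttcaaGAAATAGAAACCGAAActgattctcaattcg
Irgm2: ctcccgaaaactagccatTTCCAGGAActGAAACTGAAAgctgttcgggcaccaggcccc
Igtp: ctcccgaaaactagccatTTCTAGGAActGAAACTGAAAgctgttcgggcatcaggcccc
Tgtp1: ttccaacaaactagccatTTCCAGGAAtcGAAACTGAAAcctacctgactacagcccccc
Tgtp2: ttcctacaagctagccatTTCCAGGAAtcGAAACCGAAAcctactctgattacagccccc

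The stretches lie at chr11:48871420-48871479 for Irgm1, chr11:58214884-58214943 for Irgm2 and chr11:58199493-58199552 for Igtp. Those of Tgtp1 and Tgtp2 lie at chr11:48992293-48992352 and chr11:49064252-49064311. The ISRE letters were found in 5 of the 6 windows, and in 3.44% of all 32851 windows of the same length. The GAS letters were found in 4 of the 6, Irgm2, Igtp, Tgtp1 and Tgtp2, and in 8.30% of all windows. The Irgm2 and Igtp stretches are nearly the same, and those of Tgtp1 and Tgtp2 are closely alike. Matches within such a pair are therefore not separate finds, and the counts of genes cannot be weighed against the shares of all windows. In these 4 genes the GAS match was followed, after 2 bases, by the ISRE match, so the matches did not overlap. A search for that joined pattern, the GAS letters, any 2 bases and the ISRE letters, chosen after the sequences had been seen, found it in 5 of the 32851 windows. These belonged to the same 4 genes and to Gm12185, a further IRG family gene whose exons overlap those of Tgtp1 on the same strand. Whether the Gm12185 window holds the Tgtp1 site a second time was not checked. In Igtp the GAS match began 45 bases before the start, in Irgm2 75, in Tgtp2 81 and in Tgtp1 88. Irgm1 held 2 overlapping ISRE matches, the first beginning 30 bases before the start, and no GAS match, and the Ifi47 window held neither. The Irgm2 window covers a start at base 58214977, while the count table also gives Irgm2 an exon inside the first exons of Igtp. A match is a run of letters and was not tested as a binding site.

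**Figure D1:**
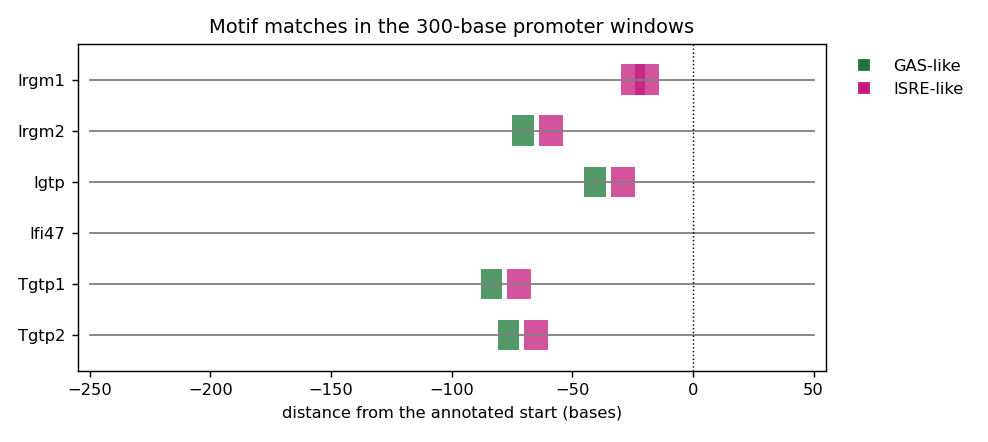
Positions of GAS-like (green) and ISRE-like (magenta) letter matches in the RefSeq promoter windows of 6 genes, in bases from the annotated start (dotted line at 0). In Irgm2, Igtp, Tgtp1 and Tgtp2 both matches stand side by side within 88 bases of the start, Irgm1 has 2 overlapping ISRE matches, and the Ifi47 window has none.

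Total counts were 44118131 to 57716522 in knockout and 49856353 to 61999941 in control libraries. Levels are given in CPM, the usual depth-scaled count, here on library sizes scaled by TMM. A gene at 0 is read as below 3 counts, or 0.0487 to 0.0691 CPM depending on the library. This limit covers counting error only, and it would be higher if both mates of a read pair added a count. Plpp1 counts were 18, 32, 29 and 19 in knockout and 61, 50, 35 and 62 in control libraries (log2 fold change -0.84, SE 0.26, adjusted p = 0.0064 by edgeR's quasi-likelihood test with Benjamini-Hochberg adjustment). In CPM the groups overlapped, at 0.376 to 0.698 in knockout and 0.677 to 1.08 in control libraries, and the knockout mean was 55.9% of the control mean. The knockout libraries held 190 to 203 CPM of 4 Y-linked genes (Ddx3y, Eif2s3y, Kdm5d and Uty), against 0.0974 to 0.244 CPM in controls, which goes against their description as cells of female mice. Xist, the RNA of the inactive X chromosome, stood at 45.6 to 56.3 CPM in knockout and 715 to 777 CPM in control libraries. Genotype and these transcripts changed together in all 8 libraries and cannot be told apart. Whether the 4 libraries of a genotype are 4 animals is not stated in the labels, so p-values reflect only library-to-library spread, possibly technical.

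All 7 IRG genes fell in the knockout libraries, and in each of them the 4 knockout libraries lay below the 4 control libraries. Fitted log2 fold changes, knockout over control, ran from -1.52 for Iigp1 to -0.34 for Irgm2, with a median of -0.90, against a median of -0.01 over all 17940 genes tested. Summed over the 7 genes, the level was 581 ± 11.8 CPM in knockout and 1005 ± 22.8 CPM in control libraries (SD, n = 4 each), or 57.8% of the control mean. The count is read against a broad difference between the genotypes. Of all tested genes 64.3% passed the same test, 31.6% as lower in knockouts, 28.2% had all 4 knockout libraries below all 4 controls, and 30.1% had all 4 above. In such bulk RNA, fewer cells of a type and less RNA per cell cannot be told apart.

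**Figure D2:**
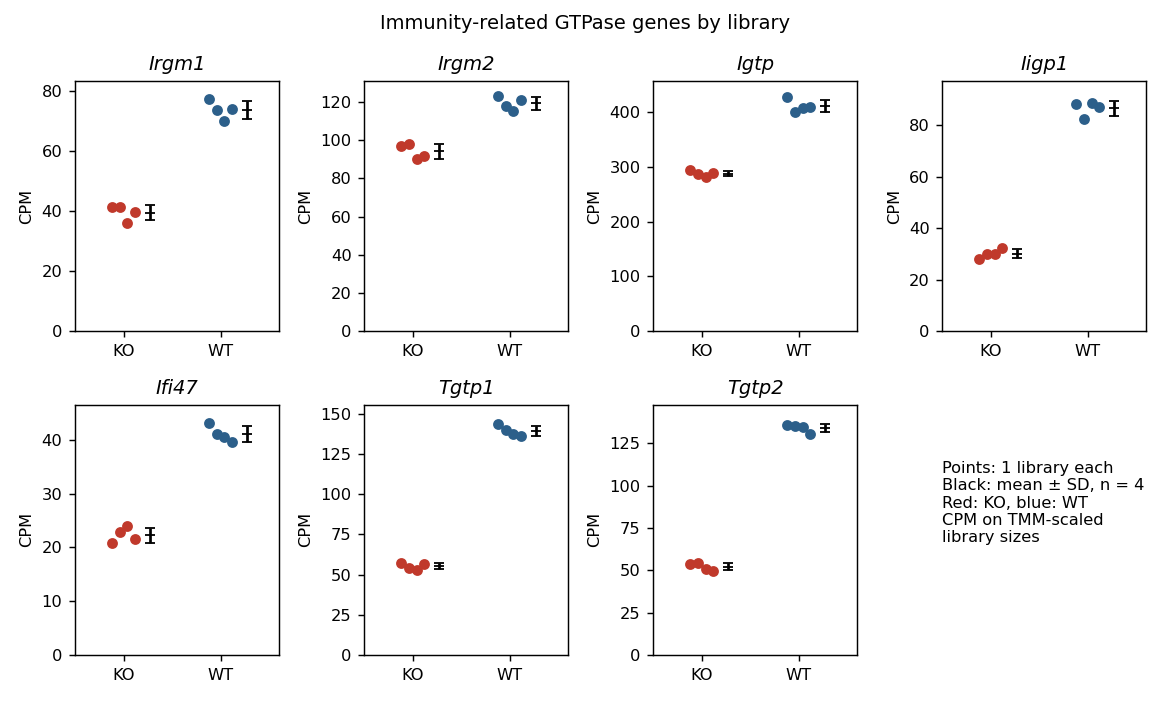
Level of each of the 7 IRG genes in CPM (axes from 0) in each knockout (red, left) and control (blue, right) library, with mean ± SD of 4 libraries in black. In every panel the knockout points lie below the control points, with the narrowest gap in Irgm2 (89.9 to 97.9 against 115 to 123 CPM).

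Among the regulators with a methionine loop, Irgm1 stood at 41.2, 41.4, 35.9 and 39.6 CPM in knockout libraries and at 77.3, 73.8, 69.9 and 73.9 CPM in control libraries. The groups lay far apart, and knockout replicate 3 was the lowest. Irgm1 thus had a log2 fold change of -0.90 (SE 0.051, edgeR quasi-likelihood test, adjusted p = 3.1e-13), or 53.6% of the control mean, and 9.18% of all tested genes had a lower value.

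Irgm2, which is found at the Golgi, stood at 96.8, 97.9, 89.9 and 91.6 CPM in knockout libraries and at 123, 118, 115 and 121 CPM in control libraries. The groups did not overlap, but the difference was small, with knockouts at 78.9% of the control mean. Its log2 fold change of -0.34 (SE 0.044, edgeR quasi-likelihood test, adjusted p = 3.5e-07) lay above that of 28.6% of tested genes.

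Igtp, which resides at the endoplasmic reticulum and lipid droplets, stood at 293, 288, 281 and 288 CPM in knockout libraries and at 427, 399, 407 and 409 CPM in control libraries. All knockout libraries were lower than all controls, and control replicate 1 was the highest. Igtp had a log2 fold change of -0.52 (SE 0.043, edgeR quasi-likelihood test, adjusted p = 3.5e-10), and 20.4% of tested genes lay lower. Irgm2 and Igtp share 162 exonic bases on the same strand, chr11:58199618-58199779, so reads there cannot be assigned to either. When fold changes were tested against 1.5-fold instead of 0, the calls of Irgm2 and Igtp ended (adjusted p = 1 for each) while the other 5 genes passed, and 9.08% of all tested genes passed as lower.

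Among the effectors with the lysine loop, Iigp1, which lies apart from the rest at chr18:60376029-60392627 on the plus strand, stood at 28.0, 29.9, 30.2 and 32.3 CPM in knockout libraries and at 88.4, 82.4, 88.5 and 87.0 CPM in control libraries. The controls were close together and well above every knockout library. For Iigp1 the log2 fold change of -1.52 (SE 0.049, edgeR quasi-likelihood test, adjusted p = 1.3e-17) put knockouts at 34.8% of the control mean, with 2.90% of all tested genes lower.

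Tgtp1 stood at 57.4, 54.3, 52.9 and 56.5 CPM in knockout libraries and at 144, 140, 138 and 136 CPM in control libraries. Tgtp2, its near-identical neighbour, stood at 53.4, 54.5, 50.9 and 49.7 CPM in knockout libraries and at 136, 135, 134 and 131 CPM in control libraries. In both rows the knockout libraries reached less than the lowest control by a wide margin. Their log2 fold changes were -1.34 (SE 0.044) and -1.36 (SE 0.044), with adjusted p = 1.6e-17 and 1.3e-17 (edgeR quasi-likelihood test). In GENCODE M21 transcripts, 79.4% of the distinct stretches of 50 bases in Tgtp1 also occurred in Tgtp2, and 85.8% of those in Tgtp2 occurred in Tgtp1. How reads were divided between these rows is therefore uncertain, and with their counts summed the log2 fold change was -1.35. Tgtp1 also shares 223 exonic bases with Gm12185 on the same strand.

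Ifi47 stood at 20.8, 22.8, 24.0 and 21.6 CPM in knockout libraries and at 43.2, 41.1, 40.5 and 39.7 CPM in control libraries. The groups were well separated, and the spread within each was of similar size. Ifi47 had a log2 fold change of -0.88 (SE 0.053, edgeR quasi-likelihood test, adjusted p = 1.1e-12), or 54.2% of the control mean. Ifi47 shares 111 exonic bases with the olfactory receptor gene Olfr56 on the same strand and 106 with Gm12188 on the opposite strand, so its row is uncertain to that extent.

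The 7 genes did not change in equal measure. Each gene's count was divided by that of Irgm1 within the same library, which removes library scaling, and the 6 log2 ratios were compared between genotypes with an exact two-sided permutation test over the 70 splits of 8 libraries, whose smallest possible p is 0.0286. In 5 of the 6 ratios the groups did not overlap and p was at that minimum (0.0343 after Benjamini-Hochberg adjustment over the 6). The share of all tested genes whose ratio to Irgm1 would differ was not computed, so the count does not mark out the family. The Tgtp1 and Tgtp2 ratios are also not separate results, since these rows may share reads. The ratio of Irgm2 to Irgm1 averaged 1.25 ± 0.051 in knockout and 0.69 ± 0.027 in control libraries on the log2 scale (SD, n = 4), and that of Igtp to Irgm1 2.86 ± 0.075 and 2.48 ± 0.045. Both were thus higher in knockouts, since these genes fell less than Irgm1. The ratios of Iigp1, Tgtp1 and Tgtp2 to Irgm1 were lower in knockouts, with differences of -0.63, -0.44 and -0.46 on the log2 scale. Iigp1 averaged -0.39 ± 0.15 in knockout and 0.23 ± 0.079 in control libraries (SD, n = 4). For Ifi47 the knockout log2 ratios of -0.99 to -0.58 enclosed the control ratios of -0.90 to -0.79 (exact permutation test, adjusted p = 0.91), so no difference from Irgm1 was detected.

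Levels of different genes were compared as CPM per kilobase of exon. In knockout libraries Igtp averaged 142 ± 2.5, Irgm2 25.5 ± 1.0, Tgtp2 17.7 ± 0.75, Tgtp1 17.2 ± 0.64, Iigp1 9.64 ± 0.57, Ifi47 9.01 ± 0.56 and Irgm1 6.81 ± 0.44 CPM per kilobase (SD, n = 4). In control libraries Igtp averaged 203 ± 5.8, Tgtp2 45.6 ± 0.80, Tgtp1 43.5 ± 0.99, Irgm2 32.3 ± 0.92, Iigp1 27.7 ± 0.92, Ifi47 16.6 ± 0.61 and Irgm1 12.7 ± 0.52 CPM per kilobase (SD, n = 4). Igtp led and Irgm1 came last in both genotypes, while Irgm2 stood above the Tgtp rows in knockouts and below them in controls. The ranges of Tgtp1 and Tgtp2 overlapped in both genotypes, and the difference between these neighbours within each library was not tested. Those of Iigp1 and Ifi47 overlapped in knockout libraries, at 8.97 to 10.4 and 8.41 to 9.69 CPM per kilobase, and lay apart in control libraries, at 26.4 to 28.4 and 16.0 to 17.5 CPM per kilobase. Reads that match both Tgtp rows may have been dropped or counted in both, and likewise for the exon that Igtp and Irgm2 share, so the place of these rows in the order and the shares below depend on a counting rule that is not known here.

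The make-up of the 7 genes per length shifted towards the regulators. The further IRG genes given below are left out of these shares, and some, such as 9930111J21Rik2 at 142 CPM in control libraries, were not rare. Igtp made up 62.3% ± 0.36 of the summed level in knockout and 53.2% ± 0.35 in control libraries (SD, n = 4). The 4 effectors together made up 23.1% to 23.9% of it in knockout libraries, against 34.6% to 35.4% in control libraries. Per length, the effectors summed to 53.6 ± 0.46 in knockout and 133 ± 2.5 CPM per kilobase in control libraries, or 40.2% of the control mean. The regulators summed to 174 ± 3.7 in knockout and 248 ± 6.9 CPM per kilobase in control libraries, or 70.3% (SD, n = 4). The split did not hold gene by gene, since Irgm1, a regulator, and Ifi47, an effector, had log2 fold changes of -0.90 and -0.88.

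**Figure D3:**
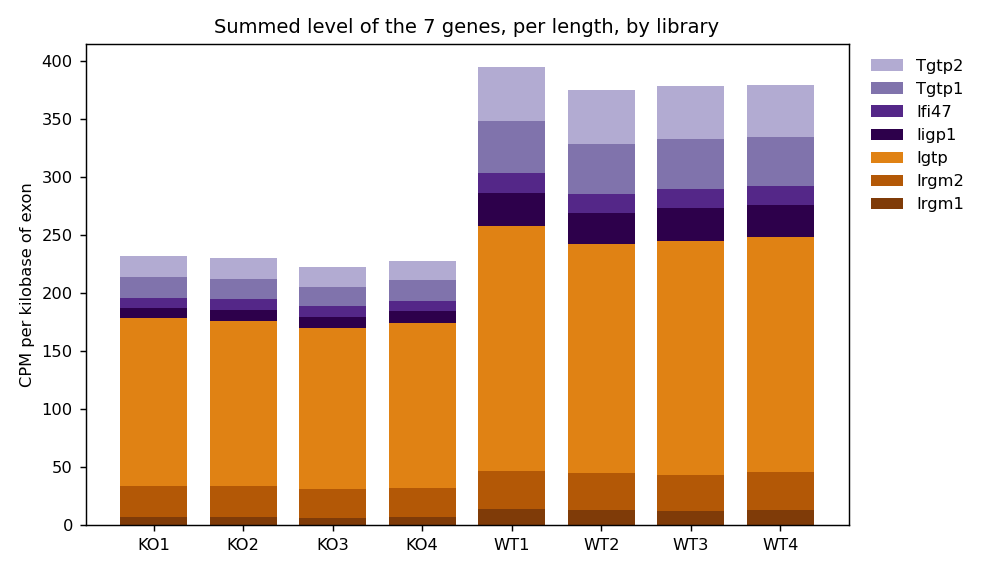
Stacked level of the 7 IRG genes in CPM per kilobase of exon in each of 4 knockout and 4 control libraries, regulators in orange and brown, effectors in purple. Stacks reach 223 to 232 in knockouts and 375 to 395 in controls, and the purple part is 23.1% to 23.9% of the stack in knockouts and 34.6% to 35.4% in controls.

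Other IRG genes were lower too. Of 12 further family genes listed, 11 were in the table and 10 passed the filter on low counts, and 8 of these fell and 0 rose (edgeR quasi-likelihood, adjusted p under 0.05), where 31.6% of all genes fell. Their median log2 fold change was -0.96. Gm12250, which encodes Irgb10, a GTPase that targets bacterial membranes, stood at 38.9 ± 1.1 CPM in knockout and 51.5 ± 0.58 CPM in control libraries (SD, n = 4), a log2 fold change of -0.41 (SE 0.044). The tandem IRG genes 9930111J21Rik2 and 9930111J21Rik1 fell by 1.93 (SE 0.054) and 2.02 (SE 0.13) on the log2 scale, and Gm12185 fell by 1.29 (SE 0.045). The level of 9930111J21Rik2 was 37.1 ± 2.5 CPM in knockout and 142 ± 7.8 CPM in control libraries (SD, n = 4). Gm5431, at 10 to 23 counts in knockout and 75 to 111 counts in control libraries, fell by 2.36 (SE 0.25). Gm4841, Gm4951 and F830016B08Rik, which lie on chromosome 18 as Iigp1 does, fell by 1.13 (SE 0.12), 0.55 (SE 0.088) and 0.74 (SE 0.19). The 2 genes that did not pass were Irgq, at 8.84 ± 1.4 CPM in knockout and 9.26 ± 0.30 CPM in control libraries (adjusted p = 0.55), and Irgc1, at 4 to 12 counts in knockout and 12 to 22 counts in control libraries (adjusted p = 0.088).

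**Figure D4:**
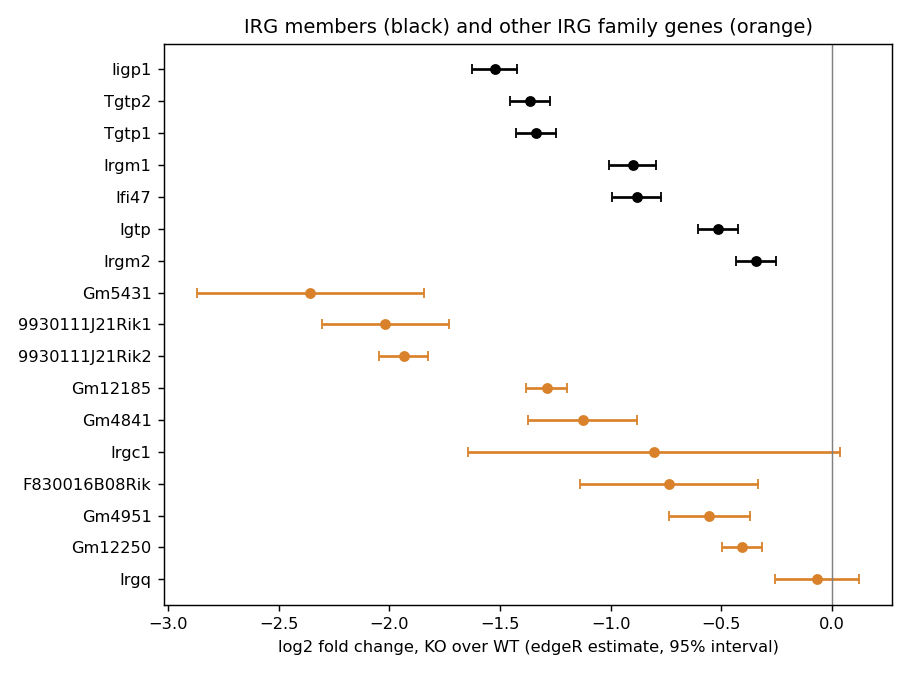
Fitted log2 fold change, knockout over control, with its 95% interval, for the 7 IRG genes (black) and 10 other tested IRG family genes (orange). All 7 black intervals lie below 0, from Iigp1 at -1.52 to Irgm2 at -0.34, and of the orange ones those of Irgc1 and Irgq include 0.

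The listed genes of interferon signalling were mostly lower. The list also holds feedback inhibitors, such as Socs1 and Socs3, and the MHC transactivators Nlrc5 and Ciita. Of 18 ligand, receptor and signalling genes listed, all tested, 12 fell and 4 rose (edgeR quasi-likelihood, adjusted p under 0.05), with a median log2 fold change of -0.58, where 31.6% of all genes fell and 32.8% rose. Ifng, the ligand, went against most of the list and rose. It stood at 25.2 ± 1.2 CPM in knockout and 1.56 ± 0.30 CPM in control libraries (SD, n = 4), and the 95% interval of its log2 fold change ran from 3.80 to 4.20.

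The receptor genes fell. Ifngr1, the ligand-binding chain of the interferon gamma receptor, stood at 222 ± 6.8 CPM in knockout and 312 ± 7.8 CPM in control libraries (SD, n = 4), and Ifngr2, its signalling chain, at 1.89 ± 0.26 and 2.72 ± 0.28 CPM. Ifnar1 and Ifnar2, the chains of the type I interferon receptor, stood at 40.2 ± 1.7 and 33.7 ± 0.25 CPM in knockout libraries, against 79.9 ± 1.8 and 63.8 ± 1.3 CPM in control libraries. Downstream, Irf1, an interferon-induced transcription factor, stood at 96.0, 89.4, 89.7 and 96.9 CPM in knockout and at 198, 203, 202 and 198 CPM in control libraries (log2 fold change -1.11, SE 0.044). The groups were far apart and the libraries within each were close.

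Stat2, a transcription factor of type I interferon signalling, fell by 1.04 (SE 0.053) on the log2 scale, and Nlrc5, the transactivator of MHC class I genes, by 0.72 (SE 0.047). Irf8, a factor of the same family as Irf1, rose by 1.13 (SE 0.056), with 302 ± 28 CPM in knockout and 138 ± 4.5 CPM in control libraries (SD, n = 4). Socs1, the feedback inhibitor of JAK kinases, rose by 0.25 (SE 0.073), with 13.7 ± 0.17 CPM in knockout and 11.5 ± 1.3 CPM in control libraries.

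**Figure D5:**
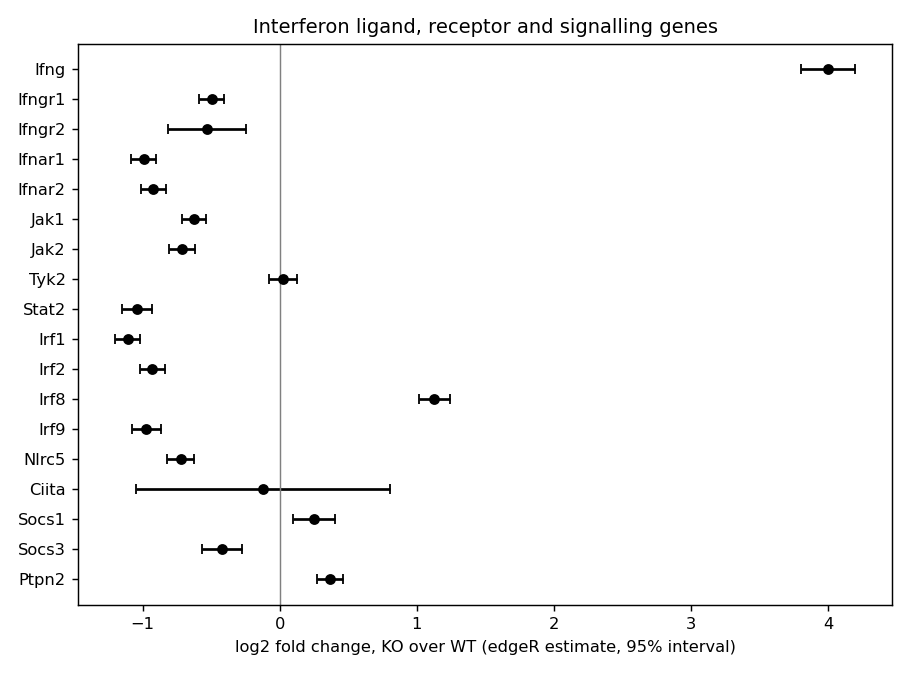
Fitted log2 fold change, knockout over control, with its 95% interval, for 18 genes of interferon ligand, receptors and signalling. The interval of Ifng runs from 3.80 to 4.20, Irf8 lies at 1.13, the receptor genes, Stat2 and Irf1 lie between -1.11 and -0.49, and the intervals of Tyk2 and Ciita include 0.

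Guanylate-binding proteins, interferon-induced GTPases that work with IRG proteins at vacuoles, fell in all 11 listed genes, where 31.6% of all genes fell, with a median log2 fold change of -1.44 beside -0.90 for the IRG genes. Of these, Gbp2b was near the limit of counting, at 3 to 6 counts in knockout and 12 to 21 counts in control libraries. Gbp2 stood at 64.3 ± 3.5 CPM in knockout and 244 ± 3.6 CPM in control libraries, Gbp6 at 94.8 ± 2.6 and 328 ± 9.5 CPM, and Gbp10 at 24.6 ± 1.5 and 102 ± 3.2 CPM (SD, n = 4). Of 13 autophagy and ubiquitin genes listed as partners of IRG proteins, 5 rose and 4 fell, with a median of -0.06. These shares are near those of all genes, of which 32.8% rose and 31.6% fell with a median of -0.01, so the counts show nothing about this list. Trim21, a ubiquitin ligase that is itself interferon-induced, fell by 0.87 (SE 0.051), with 30.5 ± 1.8 CPM in knockout and 55.7 ± 2.4 CPM in control libraries (SD, n = 4). Gabarapl1, a protein of the ATG8 family, rose by 0.81 (SE 0.058), with 45.4 ± 3.6 CPM in knockout and 25.8 ± 1.5 CPM in control libraries. Atg5, part of the complex that conjugates ATG8 proteins to lipid, rose by 0.46 (SE 0.053), with 34.2 ± 2.0 CPM in knockout and 24.8 ± 0.85 CPM in control libraries.

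Among the genes with the profile most like the mean log2 CPM of the IRG genes over 8 libraries were Sept6, BE692007, Trim12a and Gimap8, with Pearson r of 0.9993 to 0.9996. The libraries fall into 2 separate groups, and 2062 of 17933 genes had an r over 0.95, so many genes follow the same difference between genotypes. With each genotype's mean taken out, the nearest were Rb1cc1, Psmc2, Zfp976, Muc6 and Lrrc57, with r of 0.947 to 0.966. All these values come from the same 8 libraries, and only 3 of the 17933 genes then had an r over 0.95. Psmc2, Zfp976 and Lrrc57 had log2 fold changes of 0.41, 0.87 and 0.45, opposite in sign to the IRG genes. Those of Rb1cc1 and Muc6 were -0.44 and -1.04.

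Markers of the labelled cells were present, and the counts of marker genes called below stand against 31.6% of all genes that fell and 32.8% that rose. Of 7 CD8+ T cell markers 6 fell and Cd2 rose, and their summed level was 1521 to 1667 CPM in knockout and 1987 to 2034 CPM in control libraries. Among NK and gamma-delta T cell markers 5 of 6 rose, at 52.7 to 56.6 CPM summed in knockout and 26.6 to 31.7 CPM in control libraries. Most of that sum was Eomes, which CD8+ T cells also express, at 43.4 ± 2.4 CPM in knockout and 24.4 ± 2.0 CPM in control libraries (SD, n = 4). Eomes in knockouts was 1.78 times its control mean. Klrb1c, Trdc, Klre1 and Tcrg-C1 rose more, to 3.35, 2.89, 2.85 and 2.16 times their control means. Their mean levels were low, at 1.64 to 3.60 CPM in knockout and 0.488 to 1.66 CPM in control libraries. Ncr1 was not called, with means of 0.187 CPM in knockout and 0.270 CPM in control libraries. Of 14 heat shock and dissociation genes 11 rose and 1, Dusp1, fell, while Fos and Dnajb1 were not called. They summed to 8869 to 9416 CPM in knockout and 5781 to 6074 CPM in control libraries. Most of that sum was Hspa8, with means of 4729 CPM in knockout and 3536 CPM in control libraries, and Hsp90aa1, with 3694 and 1981 CPM. Macrophage and monocyte markers, 10 genes, summed to 5.29 to 6.22 CPM in knockout and 6.56 to 7.10 CPM in control libraries. Of them Adgre1, C1qa, C1qc and Mrc1 were at 0 to 8 counts in each library, while Cd68 held 97 to 115 counts in knockout and 128 to 144 in control libraries. Itgam fell, with 0.557 ± 0.19 CPM in knockout and 2.26 ± 0.31 CPM in control libraries, and Csf1r rose, with 2.00 ± 0.25 and 1.28 ± 0.25 CPM (SD, n = 4). Dendritic cell markers, 8 genes, summed to 14.2 to 16.7 CPM in knockout and 13.3 to 13.6 CPM in control libraries, with Cd209a at 0 throughout. Within that sum Zbtb46 and H2-Ab1 rose by 1.95 (SE 0.20) and 0.37 (SE 0.080) on the log2 scale, and Ccr9 fell by 2.48 (SE 0.16). B cell markers, 6 genes, summed to 3.69 to 4.38 CPM in knockout and 5.10 to 6.56 CPM in control libraries. CD4+ T cell markers, 4 genes, summed to 31.9 to 35.5 CPM in knockout and 36.1 to 38.3 CPM in control libraries, and erythroid markers, 5 genes, to 11.1 to 13.0 and 5.65 to 6.42 CPM. The 6 neutrophil markers summed to at most 0.158 CPM in knockout and 0.0982 CPM in control libraries. Of 7 melanoma markers Tyrp1, Tyr and Mlana were at 0 in all libraries, and the sum of 5.30 to 6.56 CPM in knockout and 17.9 to 19.4 CPM in control libraries was mostly Pmel. Fibroblast and endothelial markers, 7 genes, summed to 25.2 to 30.5 CPM in knockout and 99.5 to 112 CPM in control libraries. Nearly all of that was Pecam1, which T cells also express, while Pdgfra was at 0 and Cdh5 held counts in a single library. The part of these markers in the IRG difference was not tested.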

How the data were processed

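The authors deposited 1 table of raw read counts per gene for 8 libraries, with exon coordinates and lengths and no normalization, per the file headers. Libraries were stranded polyA preparations, per the labels' protocols. The submitters' processing notes name Trimmomatic 0.36, featureCounts, Subread 1.5.1 and the build GRCm38. Not given in the sources used here are the aligner, annotation release, strand setting and treatment of reads with several matches. Among genes with 1 to 10 counts, 87.0% to 88.7% of counts were even, as when both mates add a count.

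The test was edgeR's (4.0.16; limma 3.58.1, R 4.3.3) robust quasi-likelihood F test, two-sided, on 17940 genes that passed filterByExpr, after TMM scaling. Benjamini-Hochberg adjustment ran over all of them, with adjusted p under 0.05 called. An SE was taken as |log2 fold change| over the root of F. Library pairs of a genotype differed by a median chi-square per gene, on halved counts, of 1.69 to 4.47 times counting noise, and pairs across genotypes by 28.4 to 39.2 times, so all 8 libraries were kept as separate.

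The members, the other gene lists and the alternatives were chosen with earlier results of these data known. The named genes are all members, the other tested IRG genes, interferon signalling genes with an absolute log2 fold change of at least 1 with the receptors and 4 others, and the 3 genes with the smallest adjusted p of the other lists. One gene that the rule takes is not reported here, and the signalling list was counted without it. Alternatives were DESeq2 1.42.0, other scaling and filters, a replicate block, halved counts, a 1.5-fold null, leaving out X and Y genes or single libraries, and summing rows that share reads. Promoter windows are from RefSeq on GRCm38.p6 and transcripts from GENCODE M21 on the same build.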

Additional observations from a re-analysis of the deposited data

Results flagged for a closer look

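Of 118 gene and genotype combinations examined for a library standing apart from the other 3 (Dixon's test at its 95% critical value), 4 passed, where chance flags about 1 in 20, and no IRG gene was among them. Ciita, the transactivator of MHC class II, stood at 0.785 CPM in knockout replicate 2, against 0.277 CPM in the next highest knockout library. Atg7, an autophagy enzyme, stood at 14.2 CPM in knockout replicate 2, with the next at 13.1 CPM. Gabarapl2, a protein of the ATG8 family, stood at 17.4 CPM in knockout replicate 4, with the next at 15.3 CPM. Socs3, a feedback inhibitor of cytokine signalling, stood at 16.0 CPM in control replicate 1, the lowest control, with the next at 17.1 CPM.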

How the results depend on the processing

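Under all 18 alternatives each IRG gene or summed row kept a lower estimate in knockouts. All were called except Irgm2 and Igtp against a 1.5-fold null. There, 5 of 7 members and 3145 genes in all passed, against 7 and 11542. Leaving out single libraries gave 7 of 7 members each time, 11010 to 11556 genes in all, and 5 of 6 ratios to Irgm1. The ratio of Ifi47 to Irgm1 then differed by -0.066 to 0.068 on the log2 scale and turned negative without knockout replicate 3 (-0.066) or control replicate 4 (-0.0035). The replicate block left 7 members and 11516 genes called. Deviations of same-numbered libraries correlated at 0.0049 to 0.057, and those of unlike-numbered libraries at -0.068 to 0.039. Such values cannot show whether equal numbers share an animal, litter or day, which the labels do not say. With numbers as pairs, a sign-flip test called 0 of 6 ratios (adjusted p at least 0.15), since 4 pairs allow no p below 0.125. Summing rows that share exons, chosen after seeing the data, left 5 of 5 rows called. Depth did not limit the members, the smallest count being 903.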
